A study of Mus musculus with 47 samples.

Results

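The 70 genes described here, of 17754 in the deposited table, had low transcript levels in early T-cell precursors, higher levels in precursors that had committed to the T lineage, and levels in Bcl11b knockout cultures close to those of the control cultures. They were selected on measured values, the group means of log2(FPKM + 1), where FPKM is a fragment count corrected for transcript length and for the mapped total of a library. Untreated DN2b libraries (2) had to exceed untreated DN2a libraries (4) by at least 1.5, and the later series of knockout libraries on OP9-DL1 (series B, 7) had to exceed the same DN2a libraries by at least 1. The series B knockouts and their controls (6) could differ by at most 0.3, and the mean of the DN2b libraries had to reach 5 FPKM. Predicted genes with Gm or Rik symbols and 11 named genes were left out, although none of those 11 passed the thresholds. At the same stage difference, level and symbol filters, 315 genes were higher in DN2b, of which these 70 met the knockout criteria. Another 62 of the 315 were lower by at least 1 in the series B knockouts than in controls and serve as the comparison set of commitment genes that were low in knockouts. The 11 names were not left out of that set, which holds Zap70 and Lat of them, and also Bcl11b, the deleted gene itself.

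Thymocyte precursors pass from an early double-negative stage, DN2a, in which they express Kit strongly and can still give rise to other blood cells, to DN2b and DN3, in which they are committed to the T lineage. Notch signalling from the stroma drives this step, and Bcl11b, a zinc-finger transcription factor, is switched on during it. Many genes of the committed state depend on Bcl11b, while cells without it keep several progenitor features and go on expressing Kit. The study compared the transcriptomes of 47 mouse libraries to measure what Bcl11b deletion does in these cells.

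In the fetal liver series, mid-gestation precursors were given a Cre retrovirus and grown with Flt3L, IL-7 and SCF on OP9 stromal cells that carry the Notch ligand DL1 or DL4. Knockout libraries came from floxed Bcl11b embryos and controls, titled B6, from C57BL/6 embryos, some of either genotype with a ROSA26R-YFP reporter, so controls carried Cre as well. By the dates in their titles, the libraries form an earlier set of 2 title years (series A, 7 knockouts and 5 controls), on DL1 or DL4 stroma and some with reduced IL-7, and a later set of 1 title year (series B, 7 knockouts and 6 controls), on DL1 for 9 to 12 days. In series A all knockouts are titled DN2a and all controls DN2b, so genotype and sorted stage cannot be told apart there. In series B the knockouts are titled DN2a (1), DN2 (5) or DN2b (1) and the controls DN2 (3) or DN2b (3), so both genotypes share stage titles. Wild-type DN2a and DN2b cells without Cre were grown on DL1 and either left untreated or given 1 µM GSI, an inhibitor of the gamma-secretase that releases active Notch, for the last 12 hours (2 libraries of each stage). DN2b replicate 1 is titled DN3 and labelled DN2b. Thymic DN3 cells taken without culture (3 libraries) carried LckCre, which is active in thymocytes, or a Cre-ERT2 transgene that had not been induced, in 1 of them together with floxed Bcl11b. Further conditions were 1 library each, or 2 for the cultured thymic DN3 control: knockout cultures given an empty vector or Bcl11b for 36 hours, a control culture with empty vector, thymic DN3 cells and bone marrow precursors in which Cre-ERT2 had been induced with tamoxifen, and DN2 thymocytes from LckCre knockout mice. Several series B libraries are 1 culture harvested on successive days, 5 wild-type libraries and 1 thymic library have titles that join 2 dates, and separate cultures are not stated for all others. The p-values therefore measure the spread between samples, which may in part be technical.

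Bcl11b itself, the deleted gene, stood at 23.6, 26.4 and 29.6 FPKM (lowest, median, highest) in the 7 series A knockouts, and at 16.9, 54.5, 80.7, 39.9 and 62.1 FPKM in the 5 controls. The library labelled control replicate 1 lay under every knockout, whereas the other 4 controls lay above all of them. A gene-level FPKM also counts transcript left outside the deleted part. Cd3e, a chain of the T-cell receptor complex, separated the groups fully, at 5.60 to 56.2 FPKM in knockouts and 74.9 to 176 FPKM in controls (log2 difference -2.41, limma adjusted p = 0.00992), and Kit was higher in knockouts (1.33, adjusted p = 0.0348). In untreated DN2a cells, Bcl11b was at 13.3, 0.1, 15.1 and 6.27 FPKM, where 0.1 is the floor of the table and is read as not detected.

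Several libraries stood apart. DN2a replicate 2 and GSI-treated DN2a replicate 2, which share their title dates, had 6.67% and 6.54% of all genes at the floor, and 21 and 13 of the 70 members. Of 6960 genes with a median of at least 10 FPKM over the other libraries, 88 were at the floor in DN2a replicate 2, 75 in GSI-treated DN2a replicate 2 and 61 in DN2a replicate 1, and among the 46 members in that set these numbers were 11, 7 and 5. The members' median in DN2a replicate 2 was 1.37 on the log2 scale, against 2.43 to 3.25 in the other 3 untreated DN2a libraries. The choice of members leans on that library, since the rule applied without it returned 45 genes, 41 of them among the 70. Comparisons with GSI-treated DN2a are therefore also given without its replicate 2. They then rest on 1 DN2a library, GSI-treated DN2a replicate 1, so calls made without replicate 2 have no replicated baseline.

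The members covered 59 protein-coding genes, 7 T-cell receptor segments or constant regions, 2 long noncoding RNAs (AI480526, AY512931) and 2 pseudogenes (RP24-92H14.2, Scp2-ps2), by their Ensembl identifiers in GENCODE M21. The label of commitment genes fits them by the rule only. No member was on the lists of T-lineage transcription factors, Notch targets or recombination genes, and 3 were on other lists, Il7r and Arhgef1 among them. The rest were signalling regulators, chromatin proteins, vesicle and motor proteins, autophagy factors and genes of other kinds. Transcript GC content had a median of 54.3% in the members, 50.8% in the comparison set and 49.7% in 12248 genes with a mean of at least 1 FPKM. The 29 members lost without DN2a replicate 2 had a median of 56.7% GC and the 41 kept 49.6%. In that library, the median deviation of the most GC-rich protein-coding genes minus that of the most GC-poor ones (the upper and lower of 5 equal classes) was -0.45 on the log2 scale, against -0.10 in GSI-treated DN2a replicate 2 and 0.48 in DN2a replicate 1. The same value was 0.51 in GSI-treated DN2a replicate 1. The part of GC content in the selection was not tested.

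For 46 of the 70 members the RefSeq table of promoters (build GRCm38.p6) held 69 windows from 250 bases before to 50 bases after a transcription start. The windows of 4 members on which the results turn are printed to show what short factor motifs they hold: Il7r, the receptor for the growth factor IL-7, Socs1, an inhibitor of cytokine signalling, Rapgef3, an exchange factor switched on by cAMP, and Ypel3, a small zinc-binding protein. Letters are in the 5′ to 3′ direction of the gene, and capitals mark matches to 7 motifs searched on both strands: TGTGGT (RUNX), CAGCTG and CAGGTG (E-boxes), CTTTGA (TCF/LEF), AGATAA (for GATA factors), AGGAAG (ETS) and GTGGGAA (RBPJ, the Notch effector). The Il7r window is chr15:9529827-9530126, minus strand, the Rapgef3 window chr15:97767617-97767916, minus strand, the Socs1 window chr16:10785487-10785786, minus strand, and the Ypel3 window chr7:126776713-126777012, plus strand.
Il7r: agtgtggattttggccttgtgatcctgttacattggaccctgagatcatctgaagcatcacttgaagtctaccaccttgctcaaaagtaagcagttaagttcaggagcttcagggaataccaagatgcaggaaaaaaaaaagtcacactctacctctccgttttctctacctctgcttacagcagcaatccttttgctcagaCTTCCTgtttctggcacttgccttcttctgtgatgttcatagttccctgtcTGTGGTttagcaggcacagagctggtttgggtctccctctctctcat
Rapgef3: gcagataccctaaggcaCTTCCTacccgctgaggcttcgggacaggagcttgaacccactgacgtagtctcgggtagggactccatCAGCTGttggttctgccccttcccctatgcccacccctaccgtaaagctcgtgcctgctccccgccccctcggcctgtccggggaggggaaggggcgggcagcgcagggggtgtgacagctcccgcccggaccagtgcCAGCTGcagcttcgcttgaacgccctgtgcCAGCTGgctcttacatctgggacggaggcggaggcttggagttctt
Socs1: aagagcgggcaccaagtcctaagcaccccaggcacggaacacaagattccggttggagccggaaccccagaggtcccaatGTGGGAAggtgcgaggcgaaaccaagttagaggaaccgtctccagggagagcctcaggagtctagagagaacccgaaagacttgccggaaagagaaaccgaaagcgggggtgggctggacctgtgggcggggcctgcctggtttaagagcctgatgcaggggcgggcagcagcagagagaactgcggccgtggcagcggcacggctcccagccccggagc
Ypel3: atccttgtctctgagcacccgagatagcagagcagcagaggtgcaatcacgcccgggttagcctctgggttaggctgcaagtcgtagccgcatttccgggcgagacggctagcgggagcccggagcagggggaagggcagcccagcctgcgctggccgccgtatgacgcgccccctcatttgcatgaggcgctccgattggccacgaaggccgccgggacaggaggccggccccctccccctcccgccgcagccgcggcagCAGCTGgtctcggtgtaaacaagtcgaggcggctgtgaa

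The Il7r window held an ETS match on the reverse strand and a RUNX match at position 254 of the window, close to the start site. The Rapgef3 window held 3 CAGCTG matches, at positions 87, 225 and 255, and an ETS match on the reverse strand. The Socs1 window held the RBPJ letters at position 81 and no other match, and the Ypel3 window held CAGCTG at position 262. Over the 69 member windows, TGTGGT occurred in 27.5%, against 13.0% of 10433 windows of expressed genes and 16.8% of all 32851 windows. CAGCTG occurred in 23.2% of member windows, 14.7% of expressed and 16.3% of all windows. CAGGTG stood at 20.3%, 17.5% and 20.2%, AGGAAG at 34.8%, 33.8% and 35.4%, and CTTTGA at 11.6%, 11.9% and 16.0%. AGATAA was in 5.80%, 6.60% and 11.2%, and GTGGGAA in 5.80%, 5.90% and 6.38%. The 19 windows with TGTGGT included several windows of the same gene, as only 33 of the 46 genes had a single window, and a match is letters in a window, not a bound site.

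Among the members were 5 beta-chain joining segments, small coding pieces that recombination joins to a variable segment. Their sequences, from GENCODE M21 on GRCm38, are printed to show how short the features are over which FPKM was computed. Capitals mark the 11 bases found by a loose form of the Phe-Gly-X-Gly motif of joining segments. In Trbj1-6 the marked bases read Phe-Ala-Ala-Gly, so the loose form was met there and the motif itself was not. All lie on chromosome 6, plus strand: Trbj1-2 at chr6:41534001-41534048, Trbj1-3 at chr6:41534323-41534372, Trbj1-4 at chr6:41534811-41534861, Trbj1-6 at chr6:41535554-41535606 and Trbj2-3 at chr6:41543223-41543271.
Trbj1-2: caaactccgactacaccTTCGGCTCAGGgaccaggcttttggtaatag
Trbj1-3: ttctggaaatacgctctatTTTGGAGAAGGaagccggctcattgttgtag
Trbj1-4: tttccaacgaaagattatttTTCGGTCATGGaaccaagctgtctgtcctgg
Trbj1-6: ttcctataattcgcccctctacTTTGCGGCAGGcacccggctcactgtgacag
Trbj2-3: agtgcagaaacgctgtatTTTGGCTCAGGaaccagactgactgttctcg

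The printed exons are 48, 50, 51, 53 and 49 bases long, shorter than the fragments of the libraries, so their FPKM values are uncertain, as reads from neighbouring segments or unspliced transcripts of the locus could have been assigned to them.

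As the selection fixed it, the members were lowest in the DN2a libraries. The median over the 70 members on the log2 scale averaged 2.45 ± 0.80 (SD, n = 4) in untreated DN2a and 2.51 ± 0.98 (SD, n = 2) in GSI-treated DN2a. Every other group had a mean between 3.89 and 4.52. Series A controls averaged 3.92 ± 0.38 (SD, n = 5), series A knockouts 4.10 ± 0.16 (SD, n = 7), series B knockouts 4.24 ± 0.43 (SD, n = 7), series B controls 4.27 ± 0.34 (SD, n = 6), thymic DN3 4.38 ± 0.20 (SD, n = 3) and untreated DN2b 4.46 ± 0.19 (SD, n = 2). Neighbours in this order differed by less than their spread, and the single step outside it was that between the DN2a groups and the rest. Even there 1 library came close, as series A control replicate 1 had a median of 3.29 and DN2a replicate 3 of 3.25. In bulk RNA, fewer cells that express a gene and less RNA per cell cannot be told apart.

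**Figure D1:**
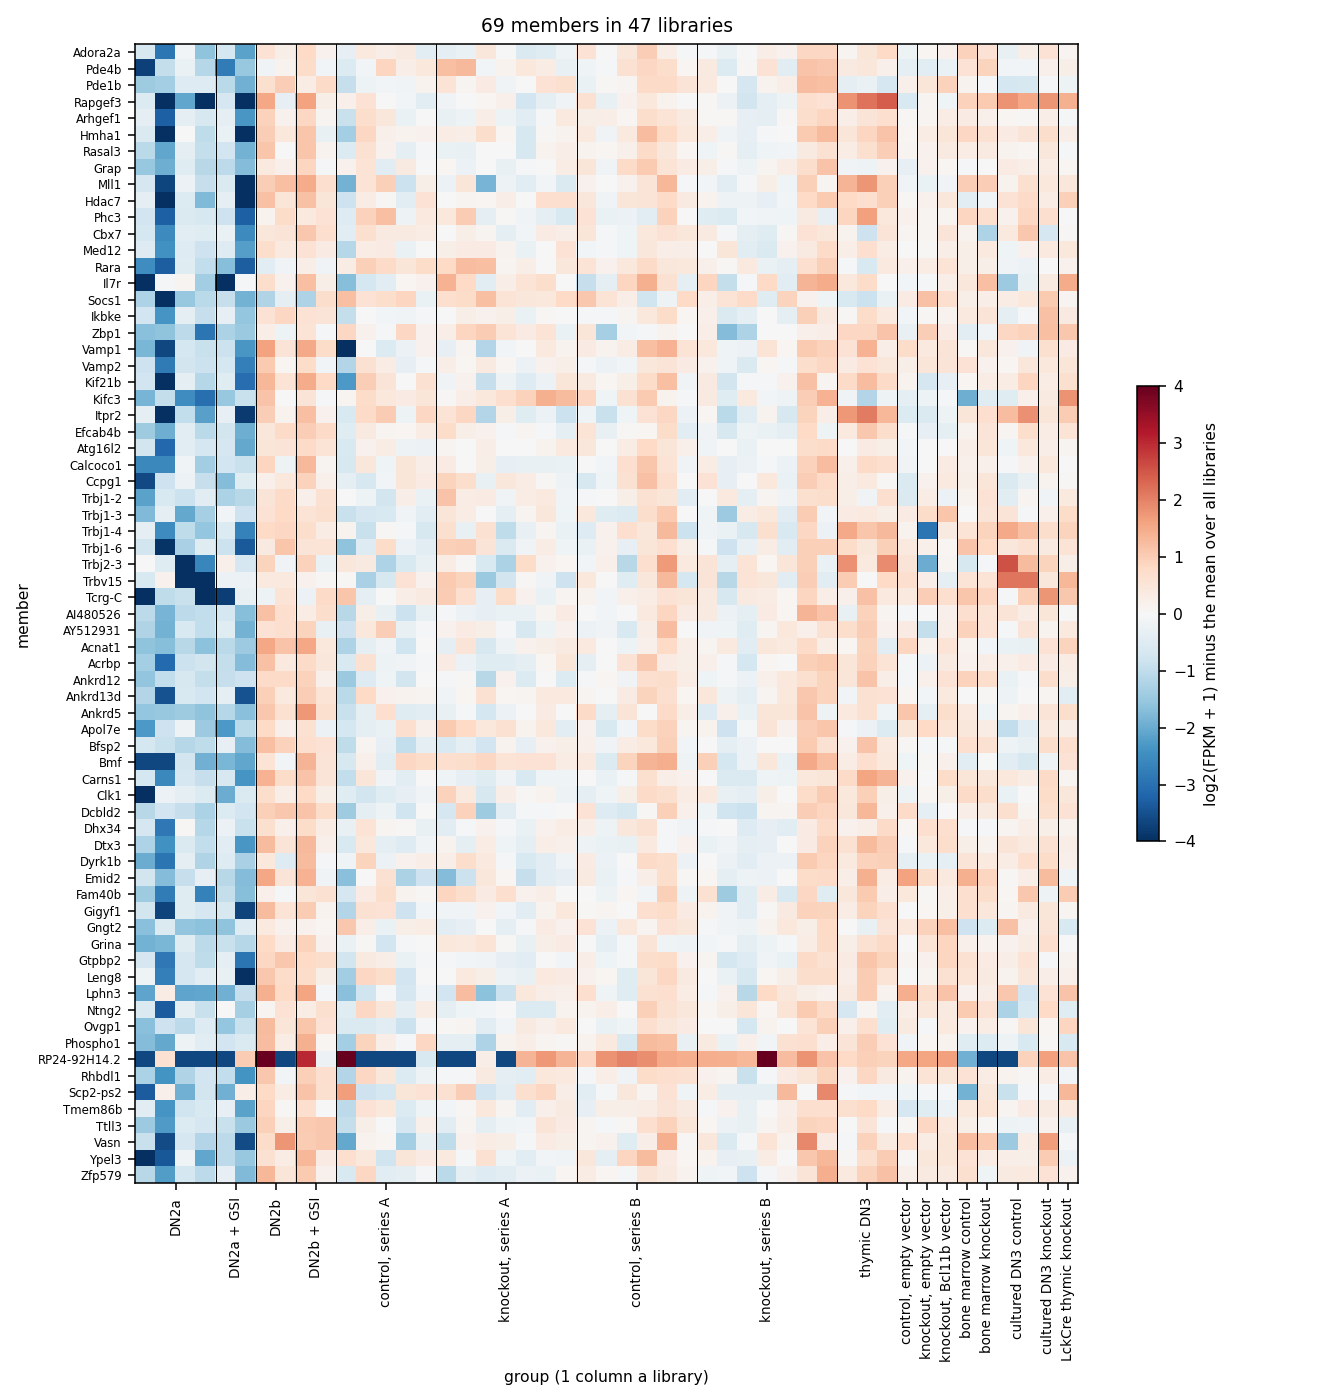
Heat map of 69 of the 70 members (1 line each) in 47 libraries (1 column each, ordered by group), coloured by log2(FPKM + 1) minus the gene's mean over all libraries. The untreated and GSI-treated DN2a columns are the low ones, DN2a replicate 2 most of all with 21 members at the floor, and the knockout columns resemble those of controls.

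**Figure D2:**
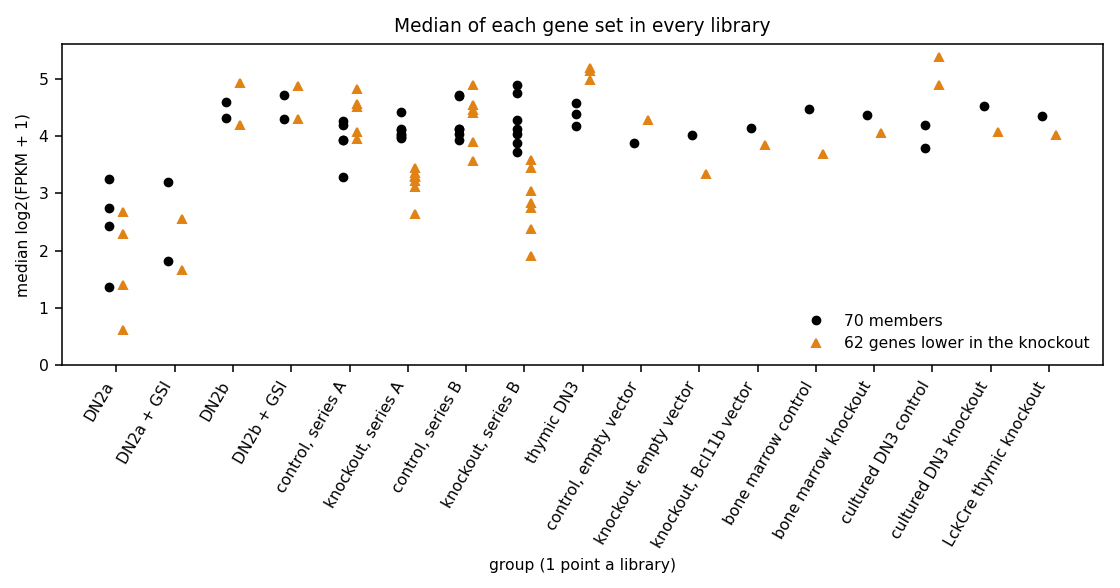
Median log2(FPKM + 1) per library (points) of the 70 members and of the 62 comparison genes, by group. The members' medians lay at 3.96 to 4.43 in the series A knockouts and 3.29 to 4.27 in their controls. In the same libraries the comparison genes, chosen for low series B knockout values, lay at 2.64 to 3.45 and 3.95 to 4.82.

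Values just inside and outside the thresholds show where the selection ended. For DN2b minus DN2a, the nearest members were Tmem86b at 1.51, Pde4b at 1.51 and Cbx7 at 1.53, and the nearest genes left out were Smarca2 at 1.48, Mcoln2 at 1.47 and Coro7 at 1.47. For knockout minus DN2a, Emid2 at 1.04, Dcbld2 at 1.05 and Efcab4b at 1.08 were in, and Mamdc4 at 0.98, Vmn1r58 at 0.94 and Hsd3b2 at 0.94 were out. For the absolute difference between series B knockout and control, Gtpbp2 at 0.29, Phc3 at 0.28 and Vamp1 at 0.28 were in, and Insl3 at 0.31, Trbj2-7 at 0.31 and Rbm15b at 0.31 were out. By level in DN2b, AY512931 at 5.33 FPKM, Ankrd5 at 5.37 and Efcab4b at 5.57 were in, and Spef1 at 4.74, Slc45a1 at 4.66 and Slc25a27 at 4.03 were out. Leaving out 1 library at a time gave between 45 and 99 members, and 14 of the 70 were kept every time: AI480526, AY512931, Acnat1, Acrbp, Ankrd12, Ankrd13d, Gngt2, Grina, Itpr2, Kifc3, Pde1b, Tcrg-C, Trbv15 and Ypel3. Without series B knockout replicate 6, a day 12 library with the highest member median of its group (4.89), 44 of the 70 were kept.

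The knockouts and controls of series A were not used to choose the members, so they show whether the similarity between genotypes held in other cultures. In this comparison none of the 70 members was called higher or lower in knockouts by limma with stroma and IL-7 level as covariates (adjusted p under 0.05), against 5.03% of 12710 genes called higher and 2.48% called lower. The members' differences had a median of 0.15 and ran from -0.53 for Itpr2, a calcium channel of the endoplasmic reticulum, to 0.95 for Il7r. The median over all genes tested was 0.08. Of the 70, 45 differed by at most 0.3, as did 7553 of the 12710 genes tested. For 49 (70% of the members) the 95% interval of the difference lay within 1 log2 unit either way, against 79.6% of all genes. Neither count is therefore particular to the members. For the other 21, among them Il7r, Itpr2, Mll1 and Phc3, the data do not exclude a change of 2-fold or more. Without the covariates, 2 members, Trbj1-3 and Ovgp1, were called higher.

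At an unadjusted p under 0.05, 6 members differed, all higher in knockouts, against 23.3% of all genes: Il7r (0.95, adjusted p = 0.148), Trbj1-3 (0.64, adjusted p = 0.0616), Clk1 (0.64, adjusted p = 0.121), Trbj1-2 (0.62, adjusted p = 0.104), Ovgp1 (0.60, adjusted p = 0.0825) and Grina (0.50, adjusted p = 0.138). The comparison set stood apart by the same fit, with 33 of 62 genes called lower, none higher and a median of -1.25, although that set was itself chosen for low series B knockout values. Pairs of knockout and control libraries that share title date, stroma and IL-7 gave member medians of 0.91, -0.04, 0.04 and 0.13. The pair at 0.91 holds control replicate 1, the library with the low Bcl11b value and the lowest member median of the controls. Without that library the members' median was 0.04 and none was called.

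**Figure D3:**
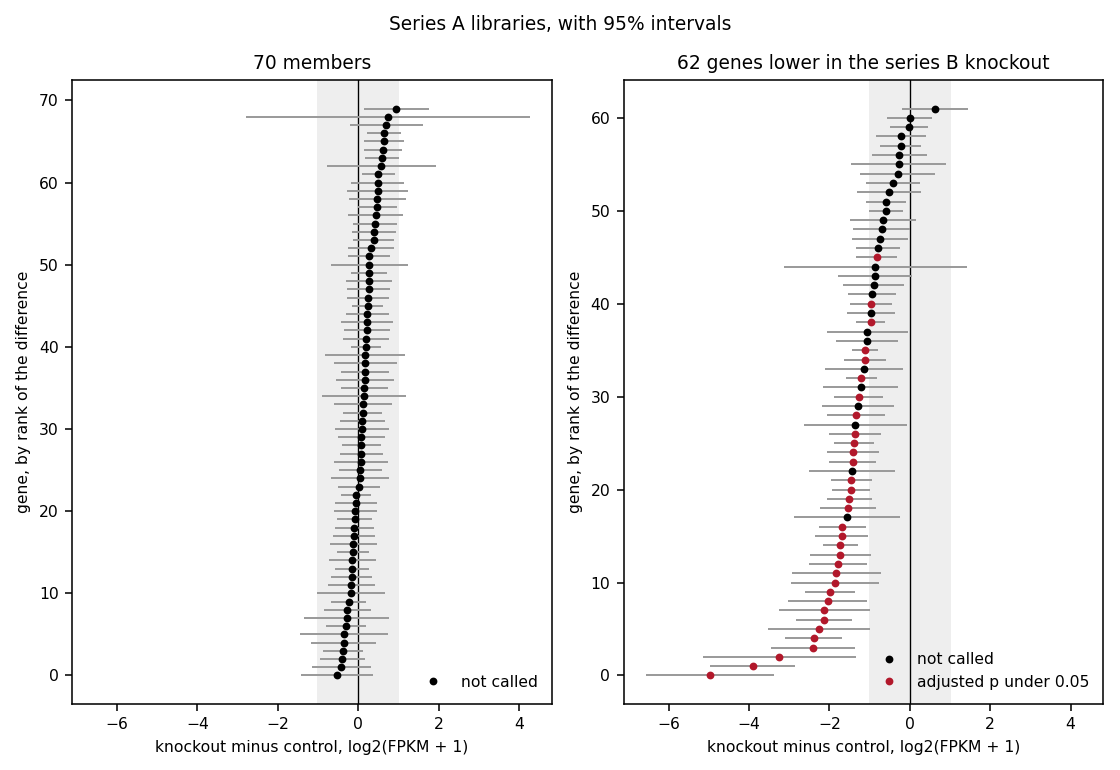
Knockout minus control difference of each member in the series A libraries on the log2(FPKM + 1) scale, with its 95% interval from limma, sorted by size, and a grey band from -1 to 1. Differences run from -0.53 (Itpr2) to 0.95 (Il7r), and 49 of the 70 intervals lie inside the band, against 79.6% of the intervals of all genes tested.

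Summed markers of some other cell types differed between the genotypes in these libraries, and several single markers were called, most of them higher in knockouts. The summed FPKM of the 6 myeloid markers in the table was 46.5 to 104 in knockouts and 15.5 to 36.9 in controls, and that of 4 erythroid and megakaryocyte markers 32.8 to 74.9 and 12.2 to 28.3, without overlap between the groups. Of 4 myeloid markers tested, 1 was called higher in knockouts (Fcgr3) and the median difference was -0.05, and of 3 erythroid and megakaryocyte markers 1 was higher (Itga2b) and 1 lower (Gata1), with a median of 0.03. NK and innate lymphoid markers had 3 of 5 tested called higher (Klrd1, Zbtb16 and Id2) and a median of 2.27, with sums of 269 to 467 and 180 to 354. Among 3 mast cell and basophil markers the sums were 189.6 to 567 and 106 to 269, and among 8 stromal markers 14.6 to 64.2 and 9.83 to 69.7, with 2 mast cell and basophil markers called higher (Cpa3 and Mcpt8) and no stromal one called. Untreated DN2a libraries had myeloid sums of 75.5 to 88.3 and erythroid sums of 84.5 to 112.5. No defining marker of these 5 lists was at the floor in every library of either genotype. A further list of 4 B-cell markers went the other way, with low sums of 1.20 to 1.99 FPKM in knockouts and 2.48 to 3.59 in controls. Its 1 tested marker, Vpreb1, was called lower in knockouts (-0.90). The members did not differ by the test in the same libraries, and the part of other cells in their levels was not tested.

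Other genes of the T-cell programme, taken from lists, gave a different picture in this comparison. Of 24 genes of the T-cell receptor complex and its signalling, 9 were called lower in knockouts (Ptcra, Cd3e, Zap70, Cd247, Cd3d, Cd3g, Lck, Lat and Cd5) and 1 higher (Txk), with a median of -0.40. Of 22 T-lineage transcription factors 2 were lower (Sox13 and Spib), and of 16 progenitor genes 5 were higher (Kit, Tal1, Gfi1b, Bcl11a and Hhex). Of 20 cytokine and chemokine receptors, Il7r included, 5 were higher (Il12rb1, Cxcr5, Il17rb, Ccr4 and Ccr8), and of 11 Notch targets 2 were higher (Nrarp and Heyl) and 1 was lower (Ptcra).

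The rise from DN2a to DN2b was looked at again in the GSI-treated libraries, which were not used in the rule but carry the title dates of untreated libraries that were, so that these counts restate part of the selection. The 2 libraries of each stage were fitted together with the series A and thymic DN3 libraries, whose spread they share. Of the 70 members 53 were called higher in DN2b, against 6.02% of 13047 genes higher, and none was called lower, against 2.88%. The median difference was 2.03, the same as in the comparison set (2.03, 38 of 62 called). Without GSI-treated DN2a replicate 2, 14 members were called (1.34% of genes) with a median of 1.48, and all 70 differences stayed above 0. Without GSI-treated DN2b replicate 1, 9 were called. A block for the replicate number left few residual degrees of freedom. None was then called, with 64 at an unadjusted p under 0.05, and none was called in a fit of the 4 libraries alone.

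Series A knockouts, set against the GSI-treated DN2a libraries, had 45 members called higher, against 5.23% of 13585 genes, and none lower, against 2.72%. The members' median difference was 1.41, with a range of 0.06 to 3.52, and the comparison set had 14 of 62 called and a median of 0.74. In the series A controls against the same DN2a libraries, 30 members were called higher, against 3.37% of 13269 genes, and none lower, against 3.89%, with a median of 1.29. The comparison set had 43 called there and a median of 2.19. These comparisons share the DN2a libraries, and stroma, IL-7, Cre and GSI differed with the groups. The GSI-treated DN2a libraries carry the title dates of untreated DN2a libraries in which the rule required low values. These counts therefore restate part of the selection as well. Without GSI-treated DN2a replicate 2, 14 members were called in the knockouts (median 0.71), against 1.38% of genes called higher, and 9 in the controls (median 0.65), against 1.15%, and with stroma and IL-7 as covariates 0 and 2 were called.

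In thymic DN3 cells taken without culture, 61 of the 70 members were higher than in GSI-treated DN2a cells, against 19.4% of 13406 genes called higher, and none was lower, against 8.46%. The median difference was 1.87, with 0.21 over all genes, and the comparison set had 54 of 62 called and a median of 2.92. Without GSI-treated DN2a replicate 2, 21 members were called, against 5.03% of genes, and the median was 1.42. Counted without a test, 65 members had all 3 thymic values above both GSI-treated DN2a values (35.9% of genes), 39 had all 7 knockout values above them (11.3%) and 26 had all 5 control values above them (7.03%). Since low DN2a values were part of the rule and the title dates are shared, these counts too restate part of the selection.

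Cytokine signalling was represented by Il7r and Socs1. The IL-7 receptor alpha chain carries the survival signal that thymocyte precursors and these cultures depend on, and Socs1 is induced by cytokines and dampens their signalling. Il7r was at 0.1, 28.5, 32.1 and 10.7 FPKM in untreated DN2a, 0.792 and 28.0 in GSI-treated DN2a, 49.4 and 33.6 in untreated DN2b and 69.4 and 35.2 in GSI-treated DN2b. The DN2a values spread from the floor to near the lower DN2b value, with the GSI pair split the same way between replicates 1 and 2. In the series A knockouts Il7r had a lowest, median and highest value of 21.4, 43.8 and 79.3 FPKM, and in the controls 8.48, 17.7, 22.2, 31.5 and 33.9. The groups overlapped, with the 5 highest values all in knockouts. Il7r was called in knockouts against GSI-treated DN2a (2.56 ± 0.69 SE, adjusted p = 0.0285) and not in controls (1.58, adjusted p = 0.229), and the direct difference between the genotypes, 0.95, was not called. Without GSI-treated DN2a replicate 2, in which Il7r was high, the differences were 4.57 and 3.59, both called.

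Socs1 was at 21.0, 0.1, 17.3 and 23.8 FPKM in untreated DN2a and at 26.4 and 12.9 in GSI-treated DN2a. In DN2b it was at 21.6 and 39.4, and in GSI-treated DN2b at 21.0 and 83.7, so that the stages overlapped apart from the value at the floor. Series A knockouts stood at 68.3, 81.5 and 118 FPKM (lowest, median, highest) and controls at 119, 77.4, 83.3, 93.1 and 41.9. Every library of both genotypes was above all DN2a libraries, and the genotypes overlapped (difference 0.11, 95% interval -0.38 to 0.60). The limma fit called Socs1 in knockouts (2.10 ± 0.40 SE, adjusted p = 0.00334) and controls (2.03 ± 0.42 SE, adjusted p = 0.00503) against GSI-treated DN2a. It was not called in GSI-treated DN2b (1.14, adjusted p = 0.155) or in thymic DN3 cells (0.84, adjusted p = 0.172), which had 32.9, 27.8 and 42.5 FPKM. With replicate 2 of GSI-treated DN2a left out, the knockout and control differences were 1.61 and 1.54 and were not called (adjusted p = 0.126 and 0.18).

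Among innate signalling genes, Ikbke is a kinase and Zbp1 a sensor of Z-form nucleic acids. Against GSI-treated DN2a, Zbp1 was called in knockouts, controls and thymic DN3 cells (1.84, 1.76 and 2.30), and Ikbke in knockouts and thymic DN3 cells (1.01 and 1.34). Without replicate 2 of GSI-treated DN2a, Zbp1 was still called in all 3 (1.74, 1.65 and 2.20) and Ikbke in neither (0.40 and 0.73).

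Bmf, a BH3-only protein that promotes cell death, differed between title years in its knockout difference, by an interaction that limma called (-1.31, adjusted p = 0.0493). In series A it was at 20.9, 21.5, 23.4, 18.9, 19.6, 19.6 and 15.9 FPKM in the 7 knockouts and 7.80, 14.8, 9.05, 23.2 and 21.9 in the 5 controls, of which the first 3 are of the earlier of the 2 title years. The knockouts lay close together in both years, and the controls of the earlier year were lower than those of the later. Against GSI-treated DN2a, Bmf was higher by 2.55 in knockouts and 2.08 in controls, both called, and by 2.42 and 1.95 without replicate 2, both called again. Title year ran with stroma and IL-7, since all libraries of the later year were on DL4, so these cannot be told apart.

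The genes of cAMP signalling were the adenosine receptor Adora2a, which raises cAMP, the phosphodiesterases Pde4b and Pde1b, which break it down, and Rapgef3. All 4 were called higher than in GSI-treated DN2a in GSI-treated DN2b, in knockouts, in controls and in thymic DN3 cells, and none was called between genotypes. Without GSI-treated DN2a replicate 2, Pde4b was called in all 4 groups, Pde1b in GSI-treated DN2b, Rapgef3 in thymic DN3 cells and Adora2a in none. Rapgef3 was at 17.1, 0.1, 5.34 and 0.1 FPKM in untreated DN2a, 15.8 and 0.1 in GSI-treated DN2a, 77.0 and 20.2 in untreated DN2b and 79.3 and 30.1 in GSI-treated DN2b. The 7 series A knockouts had a lowest, median and highest value of 14.6, 23.4 and 29.7, and the controls were at 29.8, 39.0, 25.8, 23.9 and 18.3. The genotypes overlapped with each other, the lowest knockouts overlapped with the highest DN2a values and all 5 controls lay above them, while thymic DN3 cells were higher than either, at 90.8, 119 and 141 FPKM. The thymic difference from GSI-treated DN2a was 4.76 ± 0.69 (SE, adjusted p = 0.000134), and 2.79 (adjusted p = 0.00124) without replicate 2. The knockout and control differences, 2.47 and 2.68, fell by more, to 0.50 and 0.72, and neither was then called.

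Pde4b was at 0.1, 6.44, 11.1 and 5.57 FPKM in untreated DN2a and 1.1 and 4.12 in GSI-treated DN2a, and at 12.0 and 14.9 in untreated DN2b. Knockouts had 10.9, 17.0 and 34.3 (lowest, median, highest), controls 8.84, 12.4, 25.5, 16.5 and 18.6, and thymic DN3 cells 17.6, 19.0 and 15.6. All of these lay above both GSI-treated DN2a libraries. The differences from GSI-treated DN2a, 2.57 ± 0.42 (SE, adjusted p = 0.00123) in knockouts and 2.33 ± 0.44 (SE, adjusted p = 0.00272) in controls, were 3.21 and 2.97 without replicate 2 and were called there as well.

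Regulators of small GTPases were the exchange factor Arhgef1, the GTPase-activating protein Hmha1 (now Arhgap45), Rasal3, which inactivates Ras, and the adaptor Grap. Their knockout minus control differences in series A were all small, from -0.17 to 0.04, with none called. Hmha1 was at 66.9, 0.1, 97.5 and 48.7 FPKM in untreated DN2a, 82.4 and 0.1 in GSI-treated DN2a and 197 and 133 in untreated DN2b. Knockouts had 64.0, 109 and 164 (lowest, median, highest) and controls 38.3, 178, 115, 109 and 113. The replicates 2 of both DN2a groups were at the floor, in which the gene was otherwise among the most abundant members, and the remaining DN2a values overlapped with knockouts and controls. The difference from GSI-treated DN2a, 3.52 ± 0.94 (SE, adjusted p = 0.0264) in knockouts and 3.39 (adjusted p = 0.0413) in controls, was 0.40 (adjusted p = 0.767) and 0.27 (adjusted p = 0.913) without replicate 2.

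Arhgef1 showed the same split on a smaller scale, at 117, 14.9, 116 and 96.0 FPKM in untreated DN2a and 118 and 29.2 in GSI-treated DN2a. Untreated DN2b was at 286 and 171, knockouts at 109, 131 and 198 (lowest, median, highest) and controls at 80.2, 248, 207, 125 and 152. Both genotypes overlapped with the higher DN2a values. Arhgef1 was called in GSI-treated DN2b (1.80 ± 0.51 SE, adjusted p = 0.0353) and thymic DN3 cells (1.82, adjusted p = 0.0092), but not in knockouts (1.25, adjusted p = 0.072) or controls (1.34, adjusted p = 0.0685). Rasal3, at 35.4, 17.4, 59.9 and 39.3 FPKM in untreated DN2a and 168 and 77.3 in untreated DN2b, was called in all 4, by 1.94, 1.22, 1.29 and 1.97. Without replicate 2 of GSI-treated DN2a, neither gene was called in any of the 4, and the differences in GSI-treated DN2b and thymic DN3 cells were 0.81 and 0.83 for Arhgef1 and 1.38 and 1.40 for Rasal3.

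Chromatin and transcription were represented by Mll1 (now Kmt2a), a histone H3 lysine methyltransferase, the class IIa deacetylase Hdac7, which is abundant in thymocytes, the Polycomb proteins Phc3 and Cbx7, the Mediator subunit Med12 and the retinoic acid receptor Rara. All 6 were called higher in GSI-treated DN2b and in thymic DN3 cells than in GSI-treated DN2a, 5 in knockouts and 4 in controls. Rara was called in knockouts, controls and thymic DN3 cells without GSI-treated DN2a replicate 2, and the other 5 in none of the 4 groups. Hdac7 was at 48.1, 0.1, 41.8 and 17.2 FPKM in untreated DN2a, 46.1 and 1.65 in GSI-treated DN2a and 139 and 86.3 in untreated DN2b. Its knockout values were 60.6, 66.5 and 98.8 (lowest, median, highest), and controls were at 33.7, 75.2, 63.5, 45.6 and 91.4. All knockouts lay above all DN2a libraries and below the higher DN2b library, while 2 controls lay among the DN2a values. Its differences from GSI-treated DN2a, 2.73 in knockouts and 2.41 in controls, were 0.66 and 0.33 without replicate 2.

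Rara was at 1.38, 0.361, 8.60 and 5.77 FPKM in untreated DN2a, 3.13 and 0.372 in GSI-treated DN2a and 8.99 and 11.3 in untreated DN2b. Knockouts stood at 12.3, 17.5 and 30.6 (lowest, median, highest), controls at 15.6, 25, 22.1, 17.6 and 21.6 and thymic DN3 cells at 11.8, 7.74 and 16.8. All 12 knockout and control libraries were above every DN2a and untreated DN2b library. It was higher than in GSI-treated DN2a by 3.07 ± 0.38 (SE, adjusted p = 0.000121) in knockouts and 3.15 ± 0.40 (SE, adjusted p = 9.2e-05) in controls, and by 2.28 and 2.35 without replicate 2, both called. Mll1 was lower in both genotypes than in untreated DN2b, at 4.06, 14.6 and 24.9 FPKM in knockouts and 3.99, 25.8, 35.0, 9.17 and 20.6 in controls, against 35.3 and 41.9 in untreated DN2b and 10.6, 0.444, 14.5 and 8.81 in untreated DN2a. It was called in GSI-treated DN2b (3.40, adjusted p = 0.0295) and thymic DN3 cells (3.68, adjusted p = 0.00472), but not in knockouts (1.90, adjusted p = 0.139) or controls (2.12, adjusted p = 0.12). The gene was at 11.4 and 0.1 FPKM in the GSI-treated DN2a libraries, and without replicate 2 the DN2b and thymic differences were 1.65 (adjusted p = 0.35) and 1.93 (adjusted p = 0.16).

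**Figure D4:**
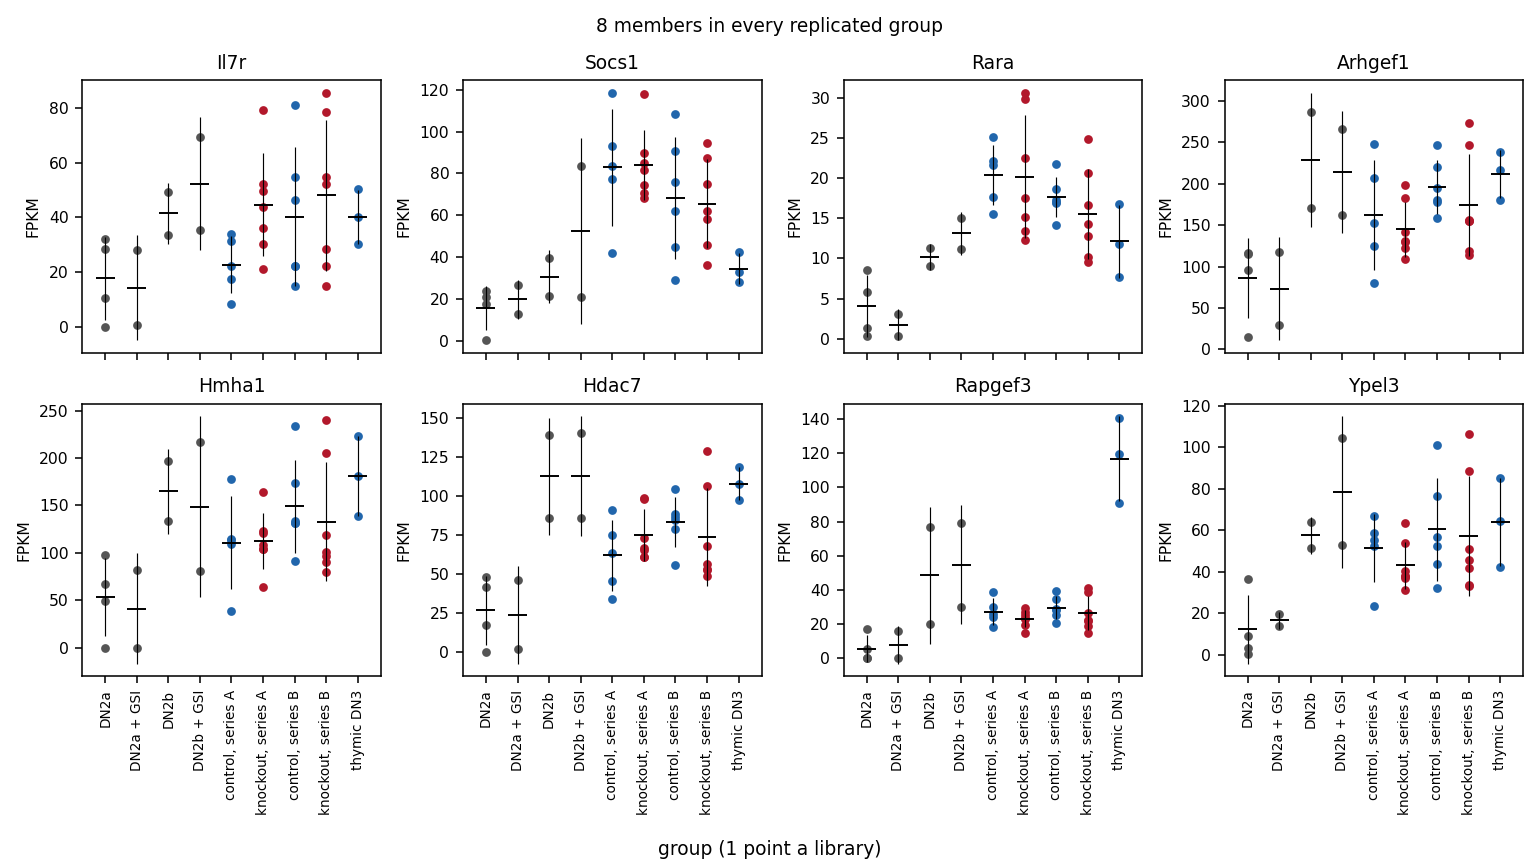
FPKM of Il7r, Socs1, Rara, Arhgef1, Hmha1, Hdac7, Rapgef3 and Ypel3 in each library (points) by group, with the group mean (bar) and SD (line). Hmha1, Hdac7 and Rapgef3 have DN2a values at or near the floor in replicate 2 beside higher ones, and knockouts and controls of series A overlap for all 8 genes.

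The other groups were smaller. Of the calcium genes, Itpr2 was at 13.5, 0.1, 8.47 and 3.16 FPKM in untreated DN2a and 36.0 and 19.5 in untreated DN2b, and at 7.37, 15.0 and 32.6 (lowest, median, highest) in knockouts and 11.3, 30.7, 37.2, 15.2 and 32.1 in controls. Thymic DN3 cells exceeded these groups at 61.9, 77.4 and 45.7 FPKM (3.79 over GSI-treated DN2a, adjusted p = 0.00186), a difference of 2.04 (adjusted p = 0.0788) without replicate 2. Efcab4b (now Cracr2a), which regulates store-operated calcium entry, was called in knockouts, controls and thymic DN3 cells, by 1.46, 1.42 and 2.07, and without replicate 2 in thymic DN3 cells alone (0.86, 0.81 and 1.47). The autophagy genes Atg16l2, Calcoco1 and Ccpg1 were all called in thymic DN3 cells, with Atg16l2 and Ccpg1 called in knockouts and Atg16l2 in controls; without replicate 2, Ccpg1 was called in knockouts and thymic DN3 cells and the other two in none of these groups. Of 4 genes of membrane traffic and motors, Vamp2, a vesicle fusion protein, and the kinesin Kifc3 were called in knockouts and controls, Vamp2 and the kinesin Kif21b in thymic DN3 cells, and Vamp1 in none of these. Without replicate 2, Kifc3 was called in knockouts and controls and no other of the 4 in any of these groups.

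Ypel3 was at 0.1, 3.08, 36.3 and 9.01 FPKM in untreated DN2a, 19.3 and 13.7 in GSI-treated DN2a and 63.7 and 51.1 in untreated DN2b. Knockouts had 30.9, 38.1 and 63.4 (lowest, median, highest) and controls 66.9, 55.3, 23.3, 58.6 and 52.6. All of these lay above both GSI-treated DN2a values, and DN2a replicate 3 overlapped with them. It was higher than in GSI-treated DN2a by 1.31 in knockouts (adjusted p = 0.027) and 1.52 in controls (adjusted p = 0.0152), and by 1.08 and 1.28 without replicate 2, neither called. Leng8 and Vasn had some of the largest stage differences in the GSI-treated libraries (3.33 and 3.36), and both had values of 0.129 or less in GSI-treated DN2a replicate 2. Without that library the differences were 0.78 and 2.10, neither called.

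T-cell receptor segments made up 7 members, and none was called between genotypes, although Trbj1-2 and Trbj1-3 were among the 6 at an unadjusted p under 0.05. Trbj1-2 was at 32.2, 95, 79.1 and 104 FPKM in untreated DN2a, 130.5, 179 and 318 (lowest, median, highest) in knockouts and 144, 125, 86.1, 175 and 119.8 in controls. The knockouts were all above the DN2a libraries, and 1 control was not. Tcrg-C, listed as a constant region of the gamma chain, was at 1.80, 65.0, 70.9 and 1.99 FPKM in untreated DN2a and 8.87 and 108 in GSI-treated DN2a, high in the replicate 2 libraries in which other members were low. It had 105, 149 and 267 in knockouts and 287, 104, 134, 160.3 and 171 in controls, all above the untreated DN2a values. Of the 7, 4 were called higher in knockouts than in GSI-treated DN2a, 1 in controls and 6 in thymic DN3 cells. Without replicate 2, Trbj1-2 and Tcrg-C were called in knockouts, Tcrg-C in controls and Trbj1-2, Trbj1-4 and Tcrg-C in thymic DN3 cells. RP24-92H14.2, a pseudogene, was the least regular member, at the floor in 3 of 4 untreated DN2a libraries and at 213 and 0.1 FPKM in untreated DN2b.

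The series B libraries cover days 9 to 12 (4 knockouts and 3 controls on days 9 to 10, 3 and 3 on day 12). Their values chose the members, and the choice leaned on day 12 libraries, so the values by day describe the selected genes and support nothing further. No member was called between day 12 and days 9 to 10 with genotype as a covariate, and no gene at all (0.0% of 12710 higher and 0.0% lower). At an unadjusted p under 0.05 there were 48 of the 70 members, against 20.8% of all genes, and 69 of 70 differences were above 0. The members' median difference was 0.54, against 0.08 over all genes and 0.35 in the comparison set. Some of the libraries are successive harvests of 1 culture, and with culture as a random block the median was 0.55 and again none was called. An interaction of day with genotype was called for no gene (275 of 12710 at an unadjusted p under 0.05, 1 of them a member).

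Il7r averaged 72.1 ± 17.6 FPKM (SD, n = 3) on day 12 and 30.0 ± 17.3 (SD, n = 4) on days 9 to 10 in knockouts, and 49.9 ± 29.4 (SD, n = 3) and 30.8 ± 21.2 (SD, n = 3) in controls. Socs1 was the exception, at 46.6 ± 10.9 FPKM on day 12 and 79.7 ± 14.4 before in knockouts, and 54.7 ± 32.1 and 82.0 ± 23.7 in controls (log2 difference -0.73 ± 0.22 SE, adjusted p = 0.143). In knockouts 69 means were higher on day 12, and in 11 members all day 12 values lay above all earlier ones; in controls these numbers were 66 and 22. Over all genes tested, 57.9% had a higher mean on day 12 and 6.60% did not overlap in knockouts, and 63.1% and 6.21% in controls. Without control replicate 6, a day 12 library, 4 members were called higher (Apol7e, Trbj1-6, Itpr2 and Vamp1) and Socs1 lower (-0.92, adjusted p = 0.0469). Over all genes in that fit, 29 of 12885 were called higher (0.225%) and 22 lower.

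**Figure D5:**
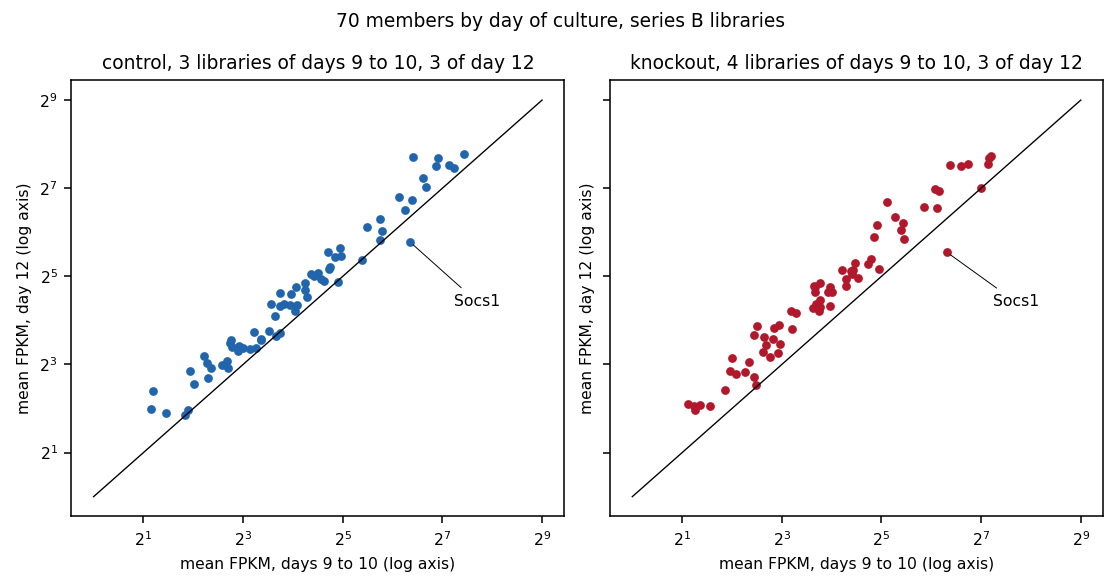
Mean FPKM of each member on day 12 (vertical, log axis) against days 9 to 10 (horizontal, log axis) in series B knockouts (n = 3 and 4) and controls (n = 3 and 3), with the line of equal values. Points lie above the line for 69 members in knockouts and 66 in controls, and Socs1, which is marked, lies under it in both.

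Single libraries show the members with vectors and under other kinds of deletion, without a replicate check. The vector libraries carry the title date and culture day of a knockout and a control library of series B that the rule used. The comparison of genotypes with empty vector therefore restates part of the selection. Differences of at least 1 are counted here. With empty vector, knockout against control had 1 member higher (Zbp1, 1.28), against 5.07% of genes, and 5 lower, against 3.19% (AY512931, Ankrd5, Dcbld2, Trbj1-4 and Trbj2-3), with a median of 0.10. With the Bcl11b vector against empty vector in knockouts, Bcl11b went from 24.7 to 105.4 FPKM, and 4 members were higher (1.87% of genes) and none lower (1.64%), with a median of 0.18. Those 4 were AY512931 (1.21), Ankrd5 (1.08), Trbj1-4 (3.30) and Trbj2-3 (2.07), all among the 5 lower with empty vector. The comparisons share the knockout library with empty vector, so a low value there enters both.

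In thymic DN3 cells cultured after deletion, with Bcl11b at 23.8 FPKM in the knockout and a mean of 70.3 in 2 controls, 8 members were higher (10.3% of genes), among them Il7r (1.23), Ikbke (1.42) and Vasn (2.24), and 4 were lower (4.51%), among them Cbx7 (-1.40) and Itpr2 (-1.06). The median was 0.26. In the LckCre thymic DN2 knockout against the LckCre DN3 control, a comparison across stages, 3 were higher (4.73%; Il7r by 1.07, Kifc3 by 1.92 and Scp2-ps2 by 1.40) and 2 lower (3.56%), with a median of -0.06. In bone marrow cultures 2 were higher (1.46%) and 2 lower (1.39%), with a median of -0.01. Bcl11b stood at 45.0 FPKM in the bone marrow library labelled knockout and 44.9 in its control, so the level of the gene does not separate them.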

How the data were processed

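RNA-seq was made from 47 mouse libraries (oligo-dT selection, random priming, no strand step listed, per the labels' protocols), with reads aligned to mm9, per the submitters' processing notes. The authors deposited FPKM values of 17754 genes, in a table whose name calls them merged and ComBat-adjusted; the sources used here do not give aligner, quantifier or batches, so the adjustment may have moved differences either way. The lowest FPKM is 0.1, at which 0.47% to 6.67% of genes stood per library; depth is unknown, and column totals were 581205 to 1005744 FPKM. A further 16 per-sample columns were not used.

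Values were analysed as log2(FPKM + 1), which understates differences of low genes, with limma 3.58.1 in R 4.3.3 (variance trend, Benjamini-Hochberg over all genes tested). Tests were limited to genes at 1 FPKM or more in a number of compared libraries no lower than the size of the smaller group, which all 70 members met; called means an adjusted p under 0.05. Covariates were IL-7 level and stroma in series A and genotype in the day comparison. Each comparison with GSI-treated DN2a was fitted over the same 19 libraries, with its own gene filter, variance trend and correction. Python 3.11.15 with pandas 2.3.3 made the summaries. On simulated data, the series A test recovered 97.5% of the genes changed by 2 log2 units among 12731, and the test of GSI-treated DN2b against DN2a 86.5%. Smaller changes were not simulated, so recovery of differences as small as those of the members in series A is unknown. In 4 pairs that the labels tie by title date, stroma and IL-7, deviations from group means correlated by -0.13, -0.15, -0.06 and -0.19 over 12361 genes.

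The members, lists and role groups were chosen with earlier results of these data known. Genes described in full were the 10 most abundant members in series A, up to 6 called members per comparison, members on lists and those nearest a threshold; Bmf, Ypel3 and other members named were added after their values were seen. The values of 1 member are not reported here. Results were recomputed with quantile normalization, without the filter, with a pseudocount of 0.1, with other covariates, blocks and subsets, and without each library in turn; splits by title year and the members selected without DN2a replicate 2 were added after seeing the data.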

Additional observations from a re-analysis of the deposited data

Results flagged for a closer look

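In 65 groups of values tested for a library far from the rest, 5 had one, when chance gives about 1 in 20. The members' median was 4.428 on the log2 scale in series A knockout replicate 2, above the 6 others. Trbj1-2 stood at 317.5 FPKM in series A knockout replicate 1, apart from the other knockouts. DN2a replicate 2 stood apart for Arhgef1 (14.86 FPKM), Hmha1 (0.1 FPKM) and Socs1 (0.1 FPKM), each below the other 3 untreated DN2a libraries.

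The knockout minus control difference of Bmf in series A changed by -1.31 on the log2 scale from the earlier to the later title year, by a test of the interaction in limma (adjusted p = 0.0493). Over all genes 216 of 12710 had such an interaction.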

How the results depend on the processing

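No result reversed. Between genotypes in series A, 2 members were called higher without covariates, 3 with the earlier title year alone (Apol7e and Trbj1-3 among them) and 0 to 2 with 1 library left out (2 without knockout replicate 3 or control replicate 4); 1 was called lower with the later year alone (Calcoco1, -0.68). With the date-pair replicate block the members' median was 0.19 and 0 were called, so the pairing changed no call there. In GSI-treated DN2b, the date-pair replicate block gave 0 calls and the 4 libraries alone gave 0, against 53, with fewer residual degrees of freedom, and leaving out 1 library gave 9 (without GSI-treated DN2b replicate 1) to 48. Against GSI-treated DN2a with 1 library left out, knockouts gave 14 to 43 calls, controls 9 to 43 and thymic DN3 cells 21 to 58, the lowest each time without GSI-treated DN2a replicate 2; with stroma and IL-7 as covariates, knockouts gave 0 and controls 2, and the cause was not tested. Among the 41 members selected without DN2a replicate 2, an alternative chosen after seeing the data, 29, 25, 17 and 34 were called in GSI-treated DN2b, knockouts, controls and thymic DN3 cells. Over all genes, 6.02%, 5.23%, 3.37% and 19.4% were called higher there. Those fits still hold GSI-treated DN2a replicate 2, which shares the title dates of the library left out. Medians of the 41 were 1.88, 1.31, 1.12 and 1.82 with it, and 1.69, 1.08, 0.86 and 1.54 without it. By day, leaving out 1 library gave 0 to 4 members higher and 0 to 1 lower, both highest without series B control replicate 6, where 29 of 12885 genes were called higher and 22 lower. The rule returned 45 to 99 members with 1 library left out (45 without DN2a replicate 2, 99 without DN2a replicate 3), and 96 with a pseudocount of 0.1, 67 of them among the 70. Single members were followed in a set of the most abundant members, those on lists and the largest called ones, not in all members named. In it, calls were lost in 90 of 189 recomputed values in GSI-treated DN2b and 34 of 273 in knockouts. In controls 35 of 231 were lost, and in thymic DN3 cells 24 of 168. Calls between genotypes were gained in 6 of 441. Outside this set, Clk1, Ovgp1, Apol7e and Calcoco1 also gained such calls. Depth is unknown, so its part could not be judged.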
